A study of Mus musculus with 12 samples.

Results

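Fibroblast growth factor (FGF) genes were examined in primary astrocyte cultures of the Rack7 conditional knockout mouse. The 29 genes, of 18903 rows in the count table, were chosen by name: the Fgf ligands, Fgfr1 to Fgfr4 and Fgfrl1, the Fgfbp binding proteins, the Sprouty (Spry1 to Spry4) and Spred (Spred1 to Spred3) proteins, Dusp6, and Etv1, Etv4 and Etv5. After a filter on low counts, 28 of them were tested among 17938 genes. Fgf16 was not tested, because it had 16 counts over all libraries. Fgf3, Fgf4, Fgf5, Fgf6, Fgf8, Fgf15, Fgf17, Fgf20, Fgf22, Fgf23 and Fgfr4 were not analysed here.

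The cultures came from mouse pups at postnatal days 1, 6 and 8 (P1, P6 and P8). All groups carried the hGFAP-Cre transgene, in which a human GFAP promoter drives Cre recombinase. The cKO groups were hGFAP-Cre; Rack7 fl/fl, with exons 3 and 4 flanked by loxP sites, and the WT groups were hGFAP-Cre; Rack7 +/+. Each of the 6 groups had 2 libraries, which the study calls biological repeats, and the labels do not say how many animals went into a culture. Brains had been stripped of meninges, and the cultures had been shaken to remove microglia and oligodendrocytes. The cells were then grown on until confluent, so P1, P6 and P8 give the age of the pups at dissection and not at harvest.

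The total count per library ranged from 54413504 to 89183250. Rack7, the histone reader encoded by Zmynd8, was counted over the whole gene, so the count does not show the excised exons. Its level was 160 to 242 CPM (counts scaled to a common library size) in the libraries labelled cKO and 99.98 to 136 CPM in those labelled WT, and was called higher in cKO at each age. The genotype is therefore given below as labelled. Among the cell type markers, the 9 astrocyte genes (Gfap, Aqp4 and others) summed to between 1404 and 2253 CPM in 10 libraries. They summed to 687 and 702 CPM in the P8 libraries labelled cKO, where 5 of the 9 were called lower, against 8.37% of all genes tested. Gja1 had a mean of 536 CPM (standard deviation 249) in P8 WT and 111 CPM in P1 WT. At P8, 1 of the 9 had a fitted log2 fold change above 0. It was Aldh1l1, with means of 286 CPM in P1 WT, 51.8 CPM in P8 WT and 72.7 CPM in P8 cKO. The values of the 11 fibroblast genes stand beside Fgf7. The 5 endothelial genes summed to 23.9 to 26.1 CPM in P1 WT and 49.5 to 51.9 CPM in P1 cKO. The order was turned at P6, with 122 to 126 CPM in WT and 58.8 to 62.6 CPM in cKO. At P8 they summed to 149 to 162 CPM in WT and 39.1 to 41.6 CPM in cKO. The 10 microglia genes summed to between 2542 and 4090 CPM in 10 libraries and to 5376 and 5427 CPM at P8 cKO. The 8 mural cell genes summed to 2830 to 2840 CPM in P1 WT and 4114 to 4115 CPM in P1 cKO. At P6 they summed to 3606 to 3716 CPM in WT and 4288 to 4873 CPM in cKO. At P8 they summed to 2702 to 2735 CPM in WT and 3361 to 3401 CPM in cKO. Of these 8, Acta2 and Tagln had the largest means in each group. The part of these cell types in the results below was not tested, and in bulk samples fewer cells of a type and less RNA per cell cannot be told apart.

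FGFs are secreted proteins that bind receptor tyrosine kinases (Fgfr1 to Fgfr4) together with heparan sulfate on the cell surface. The bound receptor signals through the RAS and ERK kinases, and ERK activity raises transcription of the PEA3 group of ETS factors (Etv1, Etv4, Etv5) and of proteins that dampen the pathway: Sprouty and Spred proteins act above ERK, and Dusp6 is a phosphatase that inactivates ERK. FGF signalling is known to support growth and maturation of astroglia. A further branch of the family, the FGF homologous factors (Fgf11 to Fgf14), stays inside the cell and binds voltage-gated sodium channels.

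Promoter sequences are shown for 3 feedback genes called higher in cKO at P8 (Dusp6, Spry1 and Spry2) and for Fgf7, a ligand called lower there. They are the 250 bases before the RefSeq transcription start, written 5′ to 3′ on the gene's strand, in build GRCm38.p6. Dusp6 lies at chr10:99262981-99263230 (+ strand), Spry1 at chr3:37639697-37639946 (+ strand), Spry2 at chr14:105896820-105897069 (- strand) and Fgf7 at chr2:126034408-126034657 (+ strand). Capitals mark CAGGAA, a hexamer that holds the GGAA core bound by ETS factors. The core alone is not marked, and each window shown also holds GGAA outside this hexamer.
Dusp6: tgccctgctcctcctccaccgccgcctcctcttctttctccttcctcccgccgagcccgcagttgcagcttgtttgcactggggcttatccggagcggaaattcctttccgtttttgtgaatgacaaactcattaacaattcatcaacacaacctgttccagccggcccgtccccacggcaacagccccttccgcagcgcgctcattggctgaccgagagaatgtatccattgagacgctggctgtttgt
Spry1: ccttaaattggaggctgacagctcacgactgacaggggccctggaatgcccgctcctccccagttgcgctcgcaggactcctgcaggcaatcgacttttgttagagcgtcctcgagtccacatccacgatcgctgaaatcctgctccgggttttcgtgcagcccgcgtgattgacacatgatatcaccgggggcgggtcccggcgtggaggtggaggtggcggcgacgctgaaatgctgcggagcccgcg
Spry2: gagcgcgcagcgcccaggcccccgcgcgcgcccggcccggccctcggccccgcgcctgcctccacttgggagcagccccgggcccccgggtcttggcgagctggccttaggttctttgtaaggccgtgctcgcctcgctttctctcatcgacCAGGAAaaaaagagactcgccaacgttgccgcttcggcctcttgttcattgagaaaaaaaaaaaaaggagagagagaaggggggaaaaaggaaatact
Fgf7: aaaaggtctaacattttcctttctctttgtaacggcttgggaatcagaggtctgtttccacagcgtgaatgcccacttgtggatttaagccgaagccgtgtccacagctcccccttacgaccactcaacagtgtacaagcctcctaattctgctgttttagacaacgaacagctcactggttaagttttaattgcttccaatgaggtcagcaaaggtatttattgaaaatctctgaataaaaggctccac
The feedback gene windows held 16 (Dusp6), 23 (Spry1) and 23 (Spry2) CG dinucleotides, and the Fgf7 window held 6. Their GC content was 56.4%, 62.4% and 62.4%, against 43.6% for Fgf7. CAGGAA, read on both strands, occurred in at least 1 window of 7 of the 23 members with a RefSeq promoter, Spry2, Etv5 and Spred1 among them, and in 25.7% of all 32851 windows. CCGGAA, a second hexamer with the same core, occurred in 2 of the 23, Fgf12 and Fgfrl1, and in 12% of all windows. Several members have more than 1 window, so the shares are not strictly alike, and the hexamers cannot lie at the same place.

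A gene was called when its fold change between the labels was at least 1.5 and its p, from the quasi-likelihood test of edgeR and adjusted by Benjamini-Hochberg over all genes tested, was below 0.05. At P1, 3 members were called higher in cKO (Fgf7, Fgfbp1 and Spry1) and 0 lower, against 4.01% and 0.892% of all genes tested. With the fold threshold left aside, Spry4 and Dusp6 also passed the adjusted p at P1. At P6, 11 members were called higher and 3 lower, against 7.16% and 6.38% of all genes. At P8, 12 were higher and 4 lower, against 11.2% and 8.37%. The median log2 fold change over the 28 members was 0.13, 0.59 and 0.55 at the 3 ages in turn, where the median over all genes lay between 0.00 and 0.01. Both cKO libraries lay above both WT libraries for 13, 21 and 17 members at P1, P6 and P8, against 25.8%, 29.7% and 36.9% of all genes. They lay below for 4, 4 and 6 members, against 25.4%, 29.3% and 33.8%. The effect of the label differed between P1 and P6 for 13 members, 10 of them with a larger and 3 with a smaller log2 fold change at P6, against 15.3% (7.12% and 8.19%) of all genes. That count was 8 without P1 WT replicate 1, P1 WT replicate 2 or P6 WT replicate 1, and 7 without P1 cKO replicate 1. Between P6 and P8 it differed for 9, with 6 larger and 3 smaller at P8, against 21.5% (12.6% and 8.83%). The P6 count rested in part on single libraries and on folds close to the threshold: it was 7 higher without P6 WT replicate 2, 7 higher and 1 lower without P6 cKO replicate 2, and 4 higher at a fold change of at least 2.

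**Figure D1:**
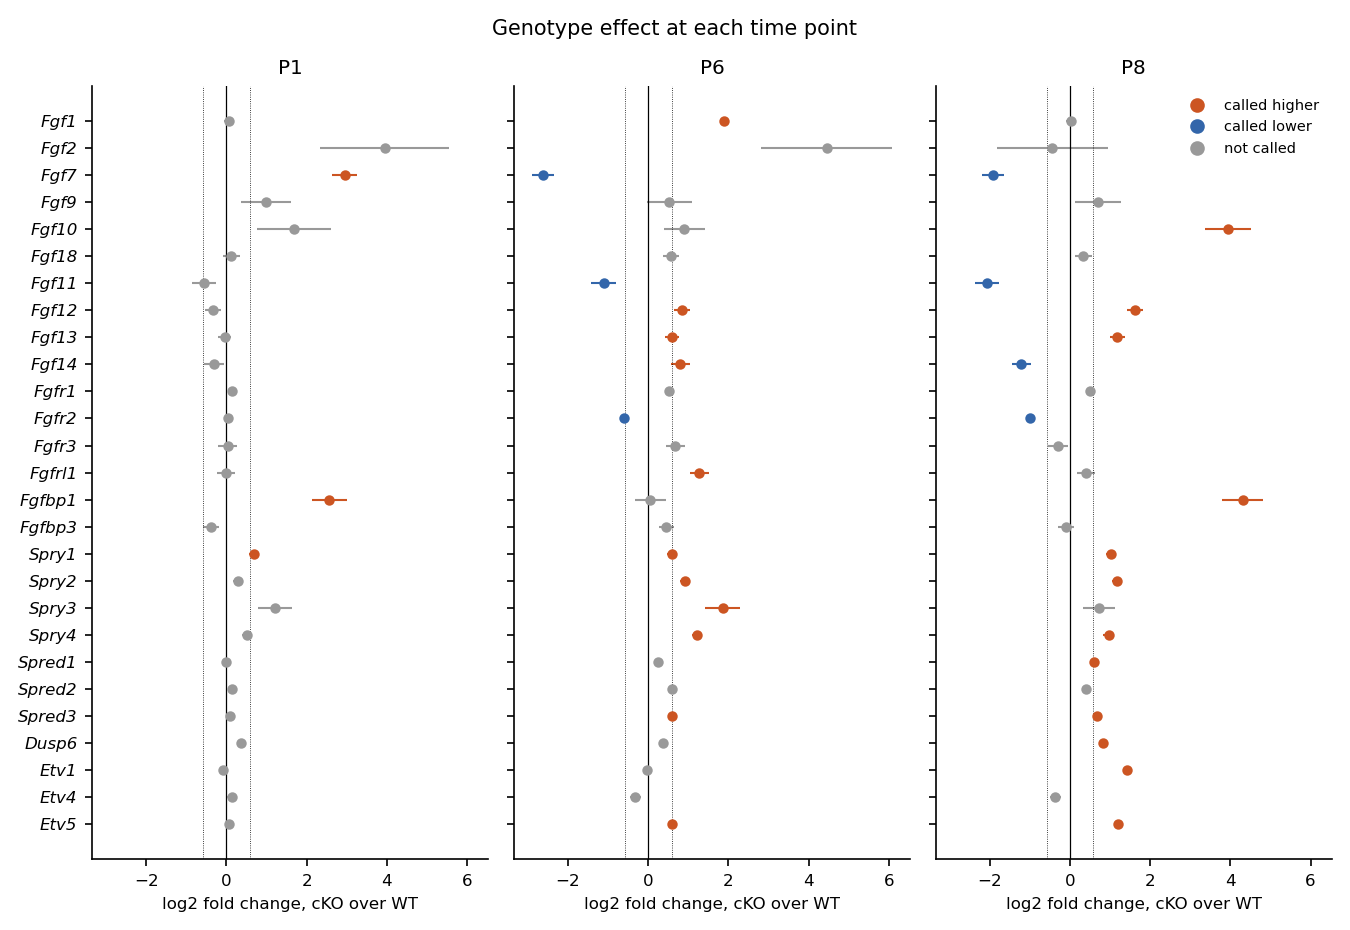
Log2 fold change of cKO over WT (horizontal axis) at P1, P6 and P8 for 27 of the 28 members tested, leaving out Fgf21, which was near 0 counts in most libraries. Points are fitted values, bars 1 standard error (SE), dotted lines a 1.5-fold change, orange called higher, blue called lower and grey not called. The Sprouty, Spred and Dusp6 points lie at or right of 0 at all 3 time points, while Fgf7 is right of 0 at P1 and left of it at P6 and P8.

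Of the secreted ligands, Fgf7 had the largest span. Fgf7, also called keratinocyte growth factor, is typically made by mesenchymal cells and acts on epithelia through a splice form of Fgfr2. Its level was 0.89 and 2.22 CPM in the P1 WT libraries and 12.5 and 12.1 CPM in P1 cKO, which did not overlap. At P6 the order was turned, with 125 and 116 CPM in WT and 16.8 and 22.2 CPM in cKO, and at P8 it stayed so, with 182 and 188 CPM in WT and 50.05 and 48.2 CPM in cKO. The log2 fold change of cKO over WT was 2.95 (SE 0.31, adjusted p = 0.000338) at P1, -2.63 (SE 0.28, adjusted p = 0.000121) at P6 and -1.91 (SE 0.27, adjusted p = 0.000461) at P8. The change of this effect between P1 and P6 was itself tested and was -5.57 on the log2 scale (SE 0.41, adjusted p = 2.05e-05). Within WT, Fgf7 rose 75.3-fold from P1 to P6 (adjusted p = 6.51e-07). Within cKO it did not pass the test over that step (log2 fold change 0.66, adjusted p = 0.0819), and it rose 2.52-fold from P6 to P8 (adjusted p = 0.00322).

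The summed level of the fibroblast markers was higher under the label in which Fgf7 was higher at each age. It was 502 and 514 CPM in P1 WT, 2571 and 2533 CPM in P1 cKO, 6910 and 6980 CPM in P6 WT, 2735 and 2563 CPM in P6 cKO, 26722 and 26603 CPM in P8 WT, and 8214 and 8463 CPM in P8 cKO. Of these 11 genes, 8 were called higher in cKO at P1 and 0 lower (4.01% and 0.892% of all genes tested). At P6, 9 were lower and 0 higher (6.38% and 7.16%), and at P8, 8 were lower and 0 higher (8.37% and 11.2%). All 11 had counts in every group except for 1 that was at 0 in P6 cKO. Col1a1 and Col1a2 had the largest levels in P6 cKO, with means of 1544 and 904 CPM (2723 and 2354 CPM in P6 WT). Col3a1 and Dcn had means of 24.4 and 2.61 CPM in P6 cKO and 1209 and 178 CPM in P6 WT. Within cKO, 6 of the 11 were called lower and 0 higher from P1 to P6, against 10.4% and 11.0% of all genes tested. Fgf7 was not called over that step. The part of the fibroblast markers in the Fgf7 result was not tested.

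**Figure D2:**
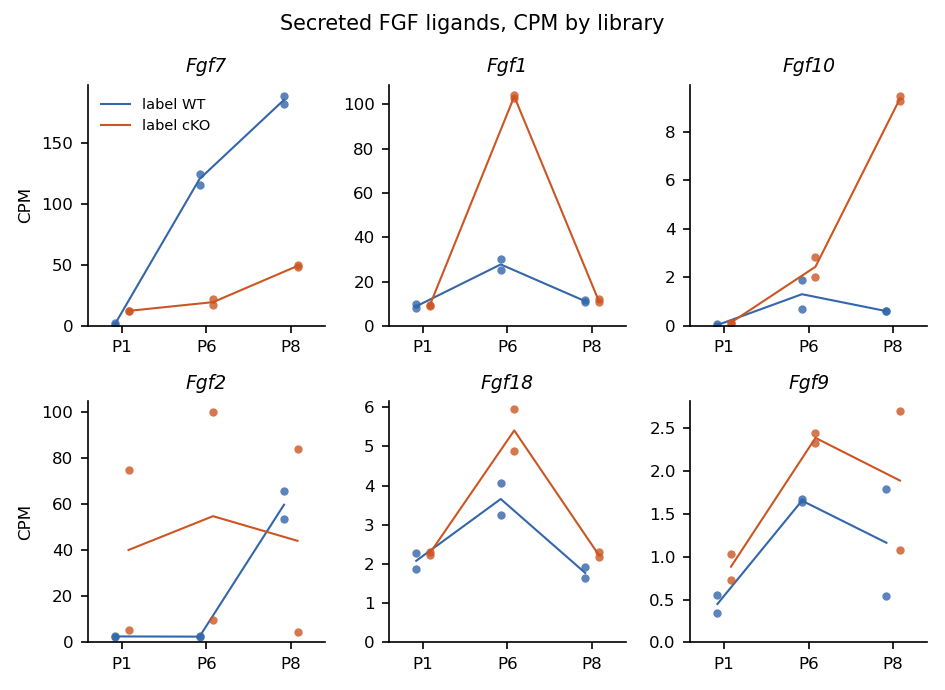
Level of the 6 secreted ligands tested with a paracrine role, in CPM (vertical axis, from 0, different for each gene), at P1, P6 and P8. Points are libraries and lines join group means, blue for the label WT and orange for cKO. Fgf7 is highest in P8 WT, Fgf1 is near 100 CPM in P6 cKO and 30.2 or less in every other library, Fgf10 is above 9 CPM only in P8 cKO, and the Fgf2 points of each cKO group lie far apart.

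**Figure D3:**
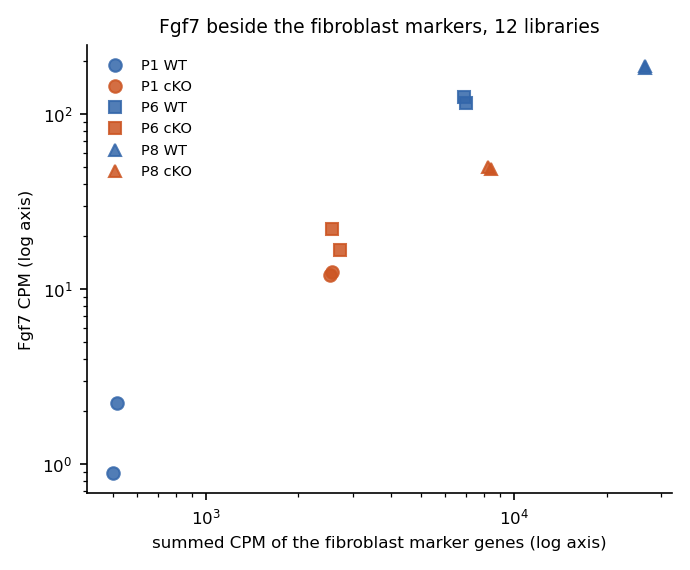
Fgf7 level in CPM (vertical, log axis) against the summed CPM of 11 fibroblast marker genes (horizontal, log axis) in the 12 libraries. The P1 WT libraries are lowest on both axes and the P8 WT libraries highest, and the points share library and depth. The sum gives most weight to the markers with high counts.

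Fgf1, a ligand that binds every FGF receptor and has no signal peptide, behaved otherwise. Its level at P6 was 30.2 and 25.3 CPM in WT and 103 and 104 CPM in cKO, a log2 fold change of 1.90 (SE 0.12, adjusted p = 4.45e-06). In P1 it was 7.93 and 9.74 CPM (WT) and 9.01 and 9.39 CPM (cKO), and in P8 11.5 and 10.8 CPM (WT) and 11.9 and 10.7 CPM (cKO). The groups overlapped at both of those time points, so Fgf1 was set apart by label at P6, where the effect differed from that at P1 by 1.84 (adjusted p = 8.87e-05) and from that at P8 by the same test (P8 less P6, -1.87, adjusted p = 5.92e-05). Within cKO it rose 11.3-fold from P1 to P6 and fell 9.12-fold from P6 to P8.

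Fgf10, a close relative of Fgf7 that signals from mesenchyme to epithelium, was low until P8. Its level was 0 and 0.074 CPM in P1 WT, 0.14 and 0.14 CPM in P1 cKO, 1.91 and 0.70 CPM in P6 WT, 2.85 and 2.02 CPM in P6 cKO, 0.61 and 0.61 CPM in P8 WT, and 9.25 and 9.46 CPM in P8 cKO. Only the P8 difference was called (log2 fold change 3.94, SE 0.57, adjusted p = 0.000555). At P8, Fgf7 and Fgf10 thus lay on opposite sides of the label comparison, while the summed fibroblast markers were lower in cKO. Fgf10 shares 2.67% of its exon bases with an antisense gene, and the strand setting of the counting was not stated.

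Fgf2, the basic FGF widely used to grow neural cells, was not called at any time point. It had 2.45 and 2.74 CPM in P1 WT, 2.81 and 2.20 CPM in P6 WT, and 53.6 and 65.7 CPM in P8 WT. The cKO replicates disagreed, with 5.54 and 74.6 CPM at P1, 99.8 and 9.68 CPM at P6, and 4.31 and 83.8 CPM at P8. These gaps were 13.5-, 10.3- and 19.4-fold. Counting only genes whose higher replicate reached 5 CPM, Fgf2 was the only member with a gap of at least 8-fold between replicates, a size seen in at least 1 group for 92 genes and in at least 2 groups for 26 genes. The fitted log2 fold changes were 3.94 (SE 1.60), 4.45 (SE 1.64) and -0.44 (SE 1.38), with adjusted p of 0.191, 0.0793 and 0.848. Fgf2 shares 640 exon bases, or 9.44% of its exons, with Nudt6 on the opposite strand, and without strand such reads cannot be told apart. Nudt6 itself was between 0.91 and 2.03 CPM in all libraries.

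The other secreted ligands were low and were not called. Fgf9, made by neurons and glia, ranged from 0.34 to 2.70 CPM, and Fgf18 from 1.63 to 5.94 CPM. For Fgf18 the P6 libraries did not overlap (4.07 and 3.24 CPM in WT, 5.94 and 4.87 CPM in cKO), with an adjusted p of 0.0724. Fgf21, an endocrine ligand, was between 0 and 0.91 CPM, highest in P8 WT. Per kilobase of exon, the mix of the paracrine ligands other than Fgf2 shifted with age and label. Fgf7 made up 11.6% ± 5.08 (SD, n = 2) of their summed level in P1 WT and 49.8% ± 1.68 in P1 cKO, 80.9% ± 1.51 in P6 WT and 19.6% ± 3.47 in P6 cKO, and 93.5% ± 0.32 in P8 WT and 70.3% ± 1.20 in P8 cKO. Fgf1 made up 62.0% ± 0.58 in P6 cKO and 11.1% ± 0.59 in P6 WT. With 2 libraries against 2, an exact permutation test cannot go below p = 0.333, and no test of the shares was run.

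Of the 4 receptors, 0 were called at P1, 1 higher and 1 lower at P6, and 1 lower at P8. The shares of all genes tested were 4.01%, 7.16% and 11.2% higher at P1, P6 and P8, and 0.892%, 6.38% and 8.37% lower. Fgfr1, the highest of Fgfr1 to Fgfr3 per length in every group, was 223 and 241 CPM in P1 WT and 251 and 257 CPM in P1 cKO. In P6 libraries it was 281 and 275 CPM (WT) and 405 and 390 CPM (cKO). In P8 libraries it was 164 and 171 CPM (WT) and 237 and 239 CPM (cKO), so the labels did not overlap. Its differences at P6 (log2 fold change 0.52, SE 0.05, adjusted p = 3.75e-05) and P8 (0.50, SE 0.05, adjusted p = 2.66e-05) passed the adjusted p but stayed under 1.5-fold, so it was not called. Fgfr2, whose splice forms bind Fgf7 or Fgf9, went the other way. It was 62.6 and 59.8 CPM in P1 WT and 62.9 and 62.9 CPM in P1 cKO. At P6 it was 79.9 and 84.3 CPM in WT and 55.0 and 52.4 CPM in cKO (log2 fold change -0.61, SE 0.06, adjusted p = 0.000106). At P8 it was 76.3 and 72.7 CPM in WT and 35.8 and 38.6 CPM in cKO (-1.002, SE 0.06, adjusted p = 2.71e-06). The P6 call for Fgfr2 fell just under 1.5-fold without P6 WT replicate 2 or P6 cKO replicate 2. The annotated span of Fgfr2 overlaps 69 other genes. Of these only Ctbp2, on the same strand, shares exon bases with it (314 bases, or 3.04% of its exons). Splice forms cannot be read from these counts.

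Fgfr3, a receptor that marks astrocytes and their precursors, was 34.9 and 43.4 CPM in P1 WT and 38.4 and 41.5 CPM in P1 cKO. In P6 libraries it was 28.9 and 27.1 CPM (WT) and 40.0 and 49.8 CPM (cKO), and in P8 libraries 27.3 and 16.6 CPM (WT) and 14.6 and 21.1 CPM (cKO). The P6 libraries did not overlap, but the difference did not pass the test (log2 fold change 0.68, SE 0.24, adjusted p = 0.0731). DESeq2 called it (adjusted p = 0.0469), and so did the fit on the P6 libraries alone (adjusted p = 0.0206). Fgfr3 shares 13.9% of its exon bases with G630022F23Rik on the opposite strand. Fgfrl1, a receptor-like protein that lacks the kinase domain, was 74.7 and 73.6 CPM in P1 WT and 70.3 and 76.0 CPM in P1 cKO. At P6 it was 63.5 and 72.9 CPM in WT and 114 and 216 CPM in cKO, a log2 fold change of 1.27 (SE 0.23, adjusted p = 0.00325). The cKO replicates differed widely there, and the log2 fold change was 0.74 without P6 cKO replicate 2. At P8 Fgfrl1 was 27.1 and 26.9 CPM in WT and 37.2 and 34.0 CPM in cKO and was not called.

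Per kilobase of exon, Fgfr1 held 67.3% ± 0.06 (SD, n = 2) of the summed Fgfr1, Fgfr2 and Fgfr3 level in P1 WT and 68.8% ± 0.21 in P1 cKO. It held 70.3% ± 0.55 in P6 WT and 77.8% ± 1.63 in P6 cKO, and 62.3% ± 3.71 in P8 WT and 79.8% ± 2.11 in P8 cKO. The Fgfr2 share was 17.0% ± 1.49 in P1 WT and 16.3% ± 0.32 in P1 cKO, 19.9% ± 0.90 in P6 WT and 10.05% ± 0.30 in P6 cKO, and 26.5% ± 0.14 in P8 WT and 11.9% ± 0.25 in P8 cKO. The libraries of the labels did not overlap at P6 or P8 for either receptor.

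**Figure D4:**
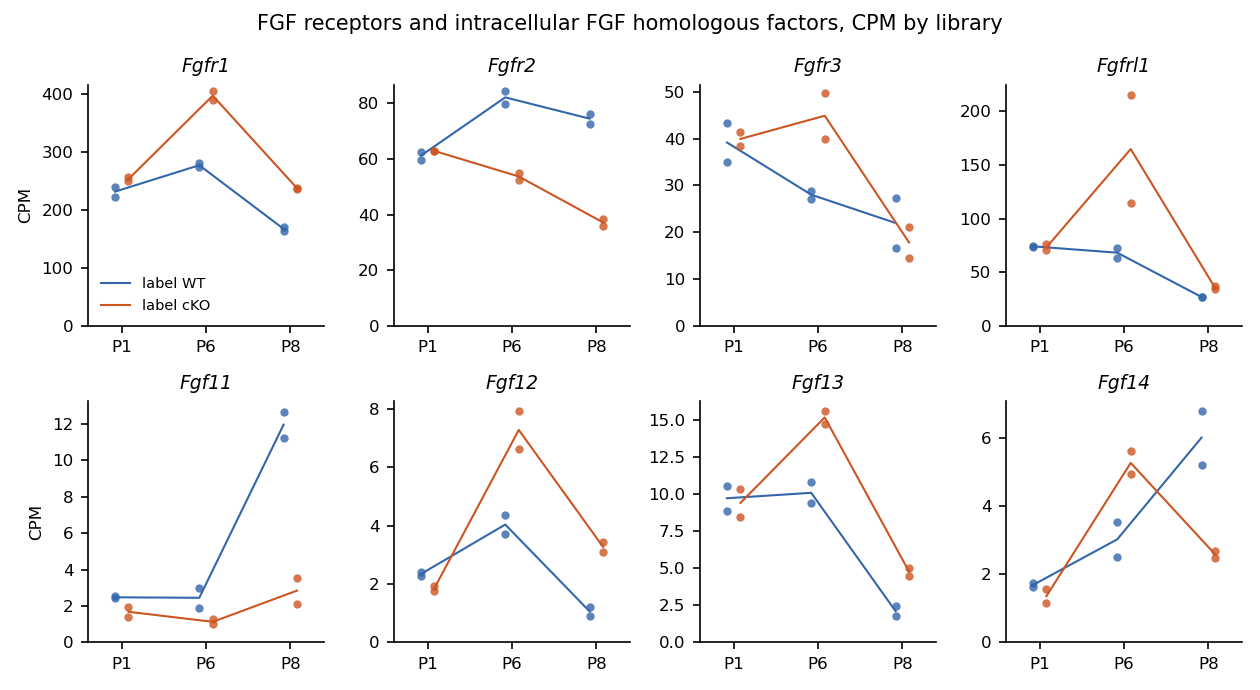
Level of the receptors and the intracellular FGF homologous factors in CPM (vertical axis, from 0, different for each gene) at P1, P6 and P8. Points are libraries, lines join group means, blue for the label WT and orange for cKO. Fgfr1 and Fgfr2 lie on opposite sides of the label comparison at P6 and P8, and the P6 cKO points of Fgfrl1 lie at 114 and 216 CPM.

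The binding protein Fgfbp1, which releases FGFs held in the matrix, was near the limit of counting. It was 0.18 and 0.17 CPM in P1 WT and 1.19 and 0.93 CPM in P1 cKO (log2 fold change 2.56, SE 0.43, adjusted p = 0.00601). It was 1.53 and 1.01 against 1.14 and 1.49 CPM at P6. At P8 it was 0.067 and 0.028 CPM in WT and 0.955 and 0.939 CPM in cKO (4.30, SE 0.51, adjusted p = 0.000157). The fold at P8 thus rests on a WT level close to 0. Fgfbp3, a relative, ranged from 3.30 to 11.3 CPM and was not called.

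The 4 intracellular homologous factors, whose better known site is the neuron, did not share a direction at P6 or P8. At P1, 0 of the 4 were called (4.01% of all genes tested higher and 0.892% lower). All 4 fitted log2 fold changes lay below 0 there, from -0.56 to -0.047. At P6 Fgf12, Fgf13 and Fgf14 were called higher and Fgf11 lower (7.16% and 6.38% of all genes tested). At P8 Fgf12 and Fgf13 were higher and Fgf11 and Fgf14 lower (11.2% and 8.37%). Fgf12 was 2.41 and 2.27 CPM in P1 WT, 1.77 and 1.95 CPM in P1 cKO, 3.72 and 4.35 CPM in P6 WT, 6.64 and 7.92 CPM in P6 cKO, 1.23 and 0.90 CPM in P8 WT, and 3.11 and 3.44 CPM in P8 cKO. Its P8 log2 fold change was 1.62 (SE 0.21, adjusted p = 0.00026). Fgf13, also expressed outside neurons, was 10.5 and 8.86 CPM in P1 WT, 8.45 and 10.3 CPM in P1 cKO, 10.8 and 9.36 CPM in P6 WT, 14.7 and 15.6 CPM in P6 cKO, 2.42 and 1.79 CPM in P8 WT, and 4.50 and 5.04 CPM in P8 cKO. Its log2 fold change was 0.59 at P6 (adjusted p = 0.0314) and 1.18 at P8 (SE 0.18, adjusted p = 0.000792).

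Fgf14 was the member of this group that turned between P6 and P8. It was 1.63 and 1.74 CPM in P1 WT, 1.16 and 1.56 CPM in P1 cKO, 2.51 and 3.55 CPM in P6 WT, 4.93 and 5.62 CPM in P6 cKO, 6.81 and 5.22 CPM in P8 WT, and 2.48 and 2.70 CPM in P8 cKO. The effect of the label was 0.80 on the log2 scale at P6 (SE 0.23, adjusted p = 0.0336) and -1.21 at P8 (SE 0.24, adjusted p = 0.00332), and the difference between them was -2.01 (SE 0.33, adjusted p = 0.00239). Fgf11 was 2.53 and 2.42 CPM in P1 WT, 1.39 and 1.97 CPM in P1 cKO, 2.98 and 1.91 CPM in P6 WT, 1.26 and 1.00 CPM in P6 cKO, 11.2 and 12.7 CPM in P8 WT, and 3.56 and 2.13 CPM in P8 cKO. Its P8 log2 fold change was -2.07 (SE 0.31, adjusted p = 0.000658). The P6 calls of all 4 were lost on leaving out a single P6 library, for Fgf12 and Fgf11 with adjusted p up to 0.0770 and 0.180, and for Fgf13 and Fgf14 with adjusted p up to 0.165 and 0.186. Of 10 listed neuron markers, 4 were in the table. They summed to 183 and 218 CPM in P6 WT and 400 and 403 CPM in P6 cKO. At P8 they summed to 120 and 140 CPM in WT and 264 and 276 CPM in cKO. Stmn2 and Map2 had the largest levels, with P6 means of 102 and 80.7 CPM in WT and 219 and 162 CPM in cKO. The P6 means of Tubb3 were 17.5 CPM in WT and 16.9 CPM in cKO, and those of Syt1 were 1.07 and 3.82 CPM. The part of the neuron markers in the values of Fgf11 to Fgf14 was not tested.

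Of the 8 feedback inhibitors, 1 was called higher in cKO at P1 (4.01% of all genes), 5 at P6 (7.16%) and 6 at P8 (11.2%). At each age 0 were called lower (0.892%, 6.38% and 8.37% of all genes), and the median log2 fold change was 0.32, 0.59 and 0.77. All 8 fitted fold changes were above 0 at each time point, with that of Spred1 at P1 at 0.00. Dusp6, the ERK phosphatase, was 98.7 and 96.9 CPM in P1 WT, 125 and 126 CPM in P1 cKO, 217 and 213 CPM in P6 WT, 279 and 277 CPM in P6 cKO, 100.2 and 96.1 CPM in P8 WT, and 169 and 177 CPM in P8 cKO. The libraries did not overlap at any time point. Its log2 fold change was 0.36 (SE 0.04, adjusted p = 0.000643) at P1 and 0.37 (SE 0.04, adjusted p = 0.000187) at P6. It was 0.82 (SE 0.04, adjusted p = 6.42e-07) at P8, the 1 time point past 1.5-fold.

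Spry1 and Spry2 encode Sprouty proteins, which restrain signalling from receptor tyrosine kinases. Spry1 was 7.06 and 7.21 CPM in P1 WT, 10.1 and 12.8 CPM in P1 cKO, 20.5 and 23.4 CPM in P6 WT, 31.9 and 34.1 CPM in P6 cKO, 10.6 and 10.5 CPM in P8 WT, and 20.5 and 22.4 CPM in P8 cKO. It was the only feedback inhibitor called at all 3 time points, with log2 fold changes of 0.68 (SE 0.12, adjusted p = 0.00917), 0.59 (SE 0.12, adjusted p = 0.00677) and 1.02 (SE 0.12, adjusted p = 0.000181). The P1 call was lost without P1 WT replicate 1, P1 WT replicate 2 or P1 cKO replicate 2 (adjusted p up to 0.0602), and the P6 fold lay at the threshold itself, so that the P6 call was also lost in 6 of the fits that left out 1 library. Spry1 shares 24.4% of its exon bases with Gm42922 on the opposite strand. Spry2 was 20.2 and 22.8 CPM in P1 WT, 27.0 and 25.3 CPM in P1 cKO, 36.1 and 45.7 CPM in P6 WT, 78.8 and 75.4 CPM in P6 cKO, 13.7 and 11.8 CPM in P8 WT, and 28.9 and 28.2 CPM in P8 cKO. Its log2 fold change was 0.91 at P6 (SE 0.12, adjusted p = 0.000498) and 1.17 at P8 (SE 0.12, adjusted p = 7.43e-05).

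Spry4 was 11.1 and 12.6 CPM in P1 WT, 15.9 and 17.8 CPM in P1 cKO, 33.2 and 33.8 CPM in P6 WT, 83.0 and 73.0 CPM in P6 cKO, 7.20 and 7.63 CPM in P8 WT, and 12.8 and 16.0 CPM in P8 cKO. The log2 fold change at P1 was 0.51 and under 1.5-fold. It was 1.22 at P6 (SE 0.12, adjusted p = 9.46e-05) and 0.96 at P8 (SE 0.13, adjusted p = 0.000308). Like Spry2, it thus had more than 70 CPM in both P6 cKO libraries and less than 50 CPM in all others. Spry3 was the faintest Sprouty gene, at 0.52 and 0.295 CPM in P1 WT, 0.88 and 0.98 CPM in P1 cKO, 0.39 and 0.23 CPM in P6 WT, 0.87 and 1.42 CPM in P6 cKO, 1.58 and 2.58 CPM in P8 WT, and 3.46 and 3.40 CPM in P8 cKO. Its P6 difference was called (log2 fold change 1.86, SE 0.44, adjusted p = 0.0122), and the call was lost without P6 WT replicate 2 (adjusted p = 0.0854) or P6 cKO replicate 2 (adjusted p = 0.072).

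The Spred proteins, relatives of Sprouty that hold neurofibromin at the membrane and lower RAS activity, were not called at P1. Spred1 was 193 and 194 CPM in P1 WT, 193 and 195 CPM in P1 cKO, 216 and 207 CPM in P6 WT, 241 and 262 CPM in P6 cKO, 185 and 185 CPM in P8 WT, and 283 and 278 CPM in P8 cKO. Its P8 fold change was 1.51 (adjusted p = 8.12e-06), just inside the threshold, and DESeq2's size factors took it just outside. Spred3 was 55.5 and 51.6 CPM in P1 WT, 53.4 and 60.7 CPM in P1 cKO, 43.6 and 42.8 CPM in P6 WT, 65.9 and 65.0 CPM in P6 cKO, 26.9 and 27.7 CPM in P8 WT, and 42.0 and 45.1 CPM in P8 cKO. The log2 fold change was 0.60 at P6 (SE 0.08, adjusted p = 0.000381) and 0.67 at P8 (SE 0.08, adjusted p = 0.00012). Spred2 ranged from 58.4 to 139 CPM and was not called, although it passed the adjusted p at P6 (0.58, adjusted p = 0.000118) and at P8 (0.40, adjusted p = 0.000861).

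Of the PEA3 factors, Etv5 had the highest level. It was 137 and 146 CPM in P1 WT, 150 and 144 CPM in P1 cKO, 184 and 179 CPM in P6 WT, 275 and 271 CPM in P6 cKO, 75.6 and 78.3 CPM in P8 WT, and 173 and 177 CPM in P8 cKO. The groups overlapped at P1 and separated at P6 (log2 fold change 0.59, SE 0.05, adjusted p = 1.67e-05) and P8 (1.19, SE 0.05, adjusted p = 1.2e-07). The P6 fold of Etv5 fell just under 1.5 without P6 WT replicate 2 or P6 cKO replicate 1. Etv1 was 28.8 and 26.6 CPM in P1 WT, 27.6 and 24.6 CPM in P1 cKO, 25.5 and 25.0 CPM in P6 WT, 25.4 and 24.1 CPM in P6 cKO, 21.0 and 21.8 CPM in P8 WT, and 56.0 and 59.4 CPM in P8 cKO. It was called at P8 (1.43, SE 0.08, adjusted p = 1.52e-06), where the effect differed from that at P6 by 1.46 (adjusted p = 2.6e-05). Etv4 ranged from 6.18 to 20.1 CPM and was not called, with log2 fold changes of -0.32 at P6 and -0.37 at P8. Etv4 thus lay below 0 where Etv5 was called higher.

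**Figure D5:**
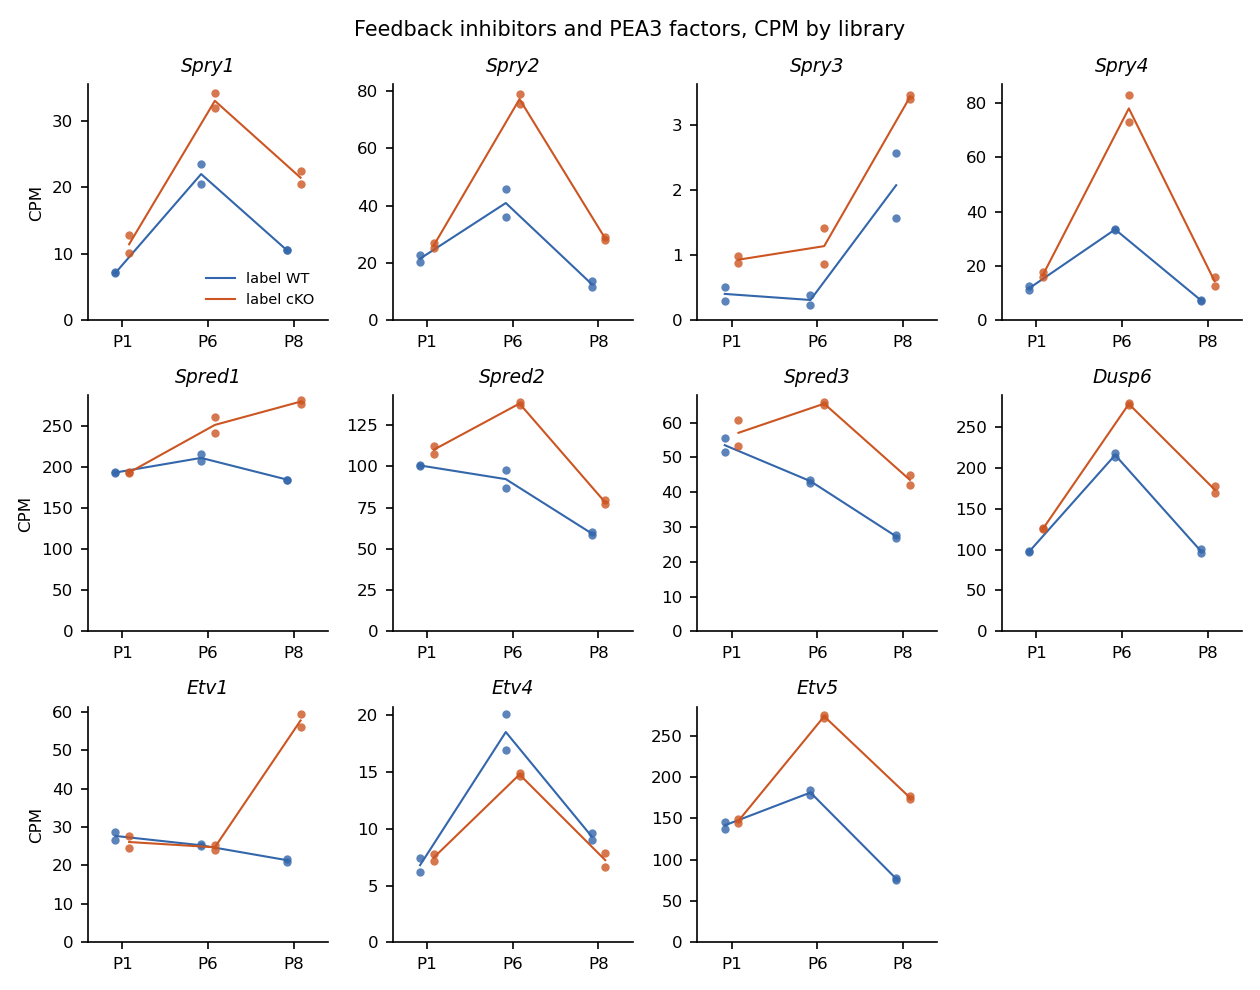
Level of the 8 feedback inhibitors and 3 PEA3 factors in CPM (vertical axis, from 0, different for each gene) at P1, P6 and P8. Points are libraries, lines join group means, blue for the label WT and orange for cKO. Dusp6, Spry1, Spry2, Spry4 and Etv5 are highest at P6 under both labels, with cKO above WT at P6 and P8.

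The ages were also compared within each label. Each age was a separate culture, so age and culture cannot be told apart, and the number of animals behind a culture is not given. From P1 to P6, 13 members rose and 0 fell in WT, against 12.2% and 10.9% of all genes tested, and 15 rose and 0 fell in cKO, against 11.0% and 10.4%. From P6 to P8, 3 rose and 16 fell in WT, against 8.66% and 10.3%, and 5 rose and 17 fell in cKO, against 11.9% and 12.2%. The P6 libraries are shared by both steps, so a low or high P6 value enters each with opposite sign. The mean level was highest at P6 for 17 of the 28 members in WT and 20 in cKO. Spry4 fell 4.51-fold from P6 to P8 in WT and 5.40-fold in cKO, and Dusp6 fell 2.19-fold and 1.60-fold. Spry3 and Fgf11 went against this trend, rising from P6 to P8 by 2.73 and 2.29 on the log2 scale in WT and by 1.59 and 1.33 in cKO.

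The members were ranked by level per kilobase of exon. In P1 WT, Etv5 (34.5 CPM per kilobase, RPKM), Dusp6 (31.2), Spred1 (28.5), Fgfrl1 (26.7) and Fgfr1 (23.5) stood in that order, with no overlap between neighbours. Dusp6 was highest in P6 WT (68.8 RPKM), P6 cKO (88.7 RPKM), P1 cKO (40.1 RPKM) and P8 cKO (55.3 RPKM). In P8 WT, Fgf7 came first with 57.0 RPKM, ahead of Dusp6 with 31.3 RPKM. Fgf7 had 15.1 RPKM in P8 cKO, below Dusp6, Etv5, Spred1, Fgfr1 and Spred2. In P1 WT the secreted ligands lay at or below 1.75 RPKM. The feedback inhibitors spread over the whole range, with Spry4 (2.50 RPKM) and Spry1 (2.46 RPKM) near the middle and Spry3 at 0.094 RPKM in P1 WT.

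Other genes of the pathway were read from 3 lists. Over all genes, 4.01%, 7.16% and 11.2% were called higher at the 3 ages in turn and 0.892%, 6.38% and 8.37% lower. Of 20 co-receptor and heparan sulfate genes, 4 were called higher and 0 lower at P1, 3 higher and 6 lower at P6, and 4 higher and 10 lower at P8. The median log2 fold change of this list was 0.26, -0.17 and -0.56. Gpc3, a glypican, had log2 fold changes of 2.11 (SE 0.13) at P1, -3.37 (SE 0.13) at P6 and -3.22 (SE 0.12) at P8, the same signs as Fgf7. Hs6st2, which adds sulfate to heparan chains, rose by 1.46 at P1 and fell by 3.12 at P6. Its relative Hs6st1 rose by 1.16 at P6, together with Flrt1 (1.65). At P8, the syndecan Sdc3 (1.48) and Ncam1 (0.99), a cell adhesion molecule that binds FGF receptors, rose, and the glypican Gpc6 fell by 2.79.

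Of 26 adaptors and kinases between the receptor and ERK, 0 were called at P1 and 0 at P6. At P8, Rps6ka1 (0.79) and Rps6ka2 (0.62), kinases activated by ERK, were called higher, and the adaptor Gab1 was lower (-0.66). The median log2 fold change of the list was -0.02, 0.10 and 0.07. Of 24 other ERK feedback genes and early targets, 4 were higher and 0 lower at P1, 2 higher and 4 lower at P6, and 8 higher and 0 lower at P8. The 2 of 24 higher at P6 lie near the 7.16% of all genes called there. The median log2 fold change was 0.21, -0.10 and 0.35. At P1 the early growth response factor Egr1 (1.04) and the AP-1 factor Fosl1 (0.94) were higher. At P6 Phlda1 (1.16) and Ccnd1 (1.06), which encodes cyclin D1, were higher, and Egr2 (-2.18) and the phosphatase gene Dusp4 (-0.90) were lower. At P8 Dusp4 (1.79) and Lgals3 (1.82), which encodes galectin-3, were higher. Dusp4 was thus on opposite sides of the label comparison at P6 and P8, unlike Dusp6.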

How the data were processed

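The authors aligned mRNA sequencing reads with HISAT2 to GRCm38 (mm10) and deposited 1 table of raw counts per gene for 12 libraries. Counting program, annotation and strand: not given in the sources used here. Replicates were not pooled, and 0 columns of per-sample values were left unused. Groups follow the labels. Counts were normalised by TMM and tested with edgeR 4.0.16 (limma 3.58.1, R 4.3.3) by the quasi-likelihood test, with 6 group means and filterByExpr by group, adjusted by Benjamini-Hochberg over 17938 genes. For interaction terms the adjusted p alone made the call. The SE is the log2 fold change over the square root of F. CPM are normalised, and lengths are exon unions of GENCODE vM21. DESeq2 1.42.0 was an alternative. The step was tested on simulated data: for P8, 54.5% of 200 genes changed 2-fold were recovered, with 7 false calls among 17938 genes. Pooled over the genes of a group, replicates differed by more than sampling noise (chi-square per degree of freedom 30.5 to 47.1). The pooled value does not describe each gene. Spred1 had 185.09 and 185.11 CPM in P8 WT, and Fgf2 had 4.31 and 83.8 CPM in P8 cKO. P-values measure the spread between these libraries.

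The members and gene lists were chosen with earlier results of these data known. Receptors, and members called in at least 1 genotype comparison whose mean reached 1 CPM, are given in every library, the others by range. From each pathway list, up to 2 called genes per direction with the largest change and at least 1 CPM are named.
The library values of Fgf2, Fgfbp1 and Fgf18 fall outside this rule and were chosen after they were seen.

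Results of the marker lists (called higher and lower in cKO at P1, P6 and P8) were 1 and 0, 0 and 1, and 0 and 5 of 9 astrocyte genes. They were 2 and 0, 2 and 3, and 2 and 2 of 8 mural cell genes, and 3 and 0, 0 and 4, and 1 and 2 of 5 endothelial genes. They were 0 and 2, 0 and 1, and 7 and 1 of 10 microglia genes, and 1 and 0, 1 and 2, and 2 and 2 of 9 oligodendrocyte lineage genes. They were 1 and 0, 3 and 0, and 2 and 0 of 4 neuron genes, and 1 and 0, 2 and 1, and 2 and 0 of 6 ependymal and choroid plexus genes. They were 0 and 0, 0 and 3, and 0 and 1 of 8 proliferation genes. Over all genes tested, the shares in the same order were 4.01% and 0.892%, 7.16% and 6.38%, and 11.2% and 8.37%. The endothelial markers Cldn5, Pecam1 and Emcn were not analysed here.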

Additional observations from a re-analysis of the deposited data

Results flagged for a closer look

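The effect of the label (cKO over WT) was compared between time points with an interaction term in the same edgeR fit. Between P1 and P6 it differed for 13 of the 28 members (15.3% of all genes tested), and the values are P6 less P1 on the log2 scale. Leaving out 1 library gave 7 to 13 members, with 7 without P1 cKO replicate 1 and 8 on leaving out either P1 WT library or P6 WT replicate 1. The effect was larger at P6 for Fgf1 (1.84), Fgfrl1 (1.29), Fgf12 (1.18), Spry4 (0.71), Spry2 (0.63), Etv5 (0.54), Spred3 (0.51), Spred2 (0.45), Fgfr1 (0.39) and Spred1 (0.25). It was smaller, or more negative, for Fgf7 (-5.57), Fgfbp1 (-2.51) and Fgfr2 (-0.65). For Fgf7 the sign turned, from above 0 at P1 to below 0 at P6. Of the 8 feedback inhibitors, 5 were in the first group and 0 in the second, against 7.12% and 8.19% of all genes tested. Dusp6 had a difference of 0.00 (SE 0.06).

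Between P6 and P8 the effect differed for 9 members (21.5% of all genes tested), given as P8 less P6. It was larger at P8 for Fgfbp1 (4.25), Fgf10 (3.04), Etv1 (1.46), Etv5 (0.59), Dusp6 (0.45) and Spred1 (0.35). It was smaller for Fgf14 (-2.01), Fgf1 (-1.87) and Fgfr2 (-0.39). The tests share the P6 libraries.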

How the results depend on the processing

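Of the single-gene results under the alternatives, 1015 kept their direction and side of the threshold, 43 lost the call, 7 gained it and 14 changed sign. All 14 were uncalled values on leaving out 1 library. Their ranges over the libraries left out were, at P1, -0.085 to 0.22 (Fgf1), -0.20 to 0.089 (Fgf13), -0.12 to 0.19 (Fgfr3), -0.077 to 0.034 (Fgfrl1), -0.0080 to 0.0075 (Spred1) and -0.0031 to 0.18 (Spred3), at P6 -0.068 to 0.0078 (Etv1), and at P8 -0.053 to 0.10 (Fgf1) and -0.62 to 0.10 (Fgfr3). Members called higher at P1 went from 3 to 5 at an unadjusted p and to 5 with DESeq2 on all libraries. At P6, 11 higher became 4 at a fold change of at least 2. Leaving out 1 library gave 7 to 12 higher and 1 to 3 lower at P6. The members whose effect differed between P6 and P1 (13) numbered 7 to 13, with 8 on leaving out either P1 WT library or P6 WT replicate 1, and 7 without P1 cKO replicate 1. Those whose effect differed between P8 and P6 went from 9 to 15 at an unadjusted p. The P8 counts were 12 higher and 4 lower whichever library was left out. Beyond the smaller number of libraries or the looser or stricter threshold itself, the cause was not tested. A lone library left in a group borrows its spread from the other groups.

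DESeq2's size factors moved the median of all genes by 0.03 or less on the log2 scale in each comparison. Replicate numbers are shared by the groups, but the deviations of same-numbered libraries correlated by -0.04 to 0.09 across 15146 genes, so the numbers were not taken as pairs. With a replicate block the counts were 3, 11 and 12 higher and 0, 3 and 4 lower at P1, P6 and P8, and 12 and 9 members for the interaction terms. Counting limits the values below about 1 CPM, such as those of Fgfbp1 and Fgf21.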
